A study of Homo sapiens with 9 samples.

Results

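The baseline transcriptome of HEK293 cells was described from the 3 libraries of cells that received an empty vector (EV), out of 9 libraries in the series. These libraries were chosen by their labels, not by a measured value. HEK293 is an established human embryonic kidney cell line carrying adenovirus E1 genes. The series measured polyadenylated RNA by strand-specific RNA-seq 48 hours after transient transfection with a Lipofectamine reagent, in cells grown in DMEM with serum. The other 6 libraries came from cells given a plasmid with an ADARB1 cDNA in the vector pCMV6-AC, either without (Short, 3 libraries) or with (Long, 3 libraries) an Alu-derived exon. ADARB1 encodes an adenosine deaminase that edits double-stranded RNA. Each group was prepared once in each of 3 cell passages, and all groups share the cell line, the transfection reagent and the time of collection. No untransfected cells were among the 9 libraries, so that the EV values include any response to transfection.

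Values are FPKM as deposited, fragments scaled by the length of the gene and by the number of fragments mapped in the library. The summed FPKM was 541348, 524578 and 517170 in EV replicates 1, 2 and 3. FPKM keep no read count, and the absolute depth behind a value is therefore unknown. The steps between the lowest values put the depth of EV replicate 2 at 1.03 times and that of EV replicate 3 at 1.16 times that of EV replicate 1, although under these ratios only 46.1% of 623 and 41.9% of 594 low genes lay within 0.02 on the log2 scale. A gene is called expressed here where its mean over the EV libraries is at least 1 FPKM. In such bulk RNA, fewer cells of a type and less RNA per cell cannot be told apart.

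In any proliferating cell line, a few abundant messages make up much of the mRNA. Transcripts of the mitochondrial genome, which encode core subunits of the respiratory chain, and messages for ribosomal proteins are usually the most abundant. Many messages of the translation machinery begin with a run of pyrimidines at the 5′ end, known as a terminal oligopyrimidine tract, which couples their translation to growth signalling through mTOR. To place these tracts, start sites are shown for the 5 nuclear protein-coding genes with the highest EV mean among those matched in the RefSeq promoter table (RACK1 to GAPDH), and for NPM1, the next in level that encodes neither a ribosomal protein nor a translation factor. Each line holds the last 10 bases before the RefSeq start and the first 15 bases of the gene (GRCh38.p14), 5′ to 3′, with the searched oligopyrimidine words (the word CTTTT, the word CTTTC, the word CTCTT, the word CTTCC or the word CCTTT, which can overlap each other) in capitals.
RACK1: gCTTTTctctctCTCTTTCactgca
RPS3: cgagccaCTTCCTTTCCTTTCagcg
EEF1A1: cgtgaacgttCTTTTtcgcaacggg
RPS24: aatcgtggttCTCTTTTcctccttg
GAPDH: gtgcatccctgtccggatgctgcgc
NPM1: agcctgcgtCCTTTCcctggtgtga

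The windows lie at chr5:181243892-181243916 on the minus strand for RACK1, chr11:75399508-75399532 on the plus strand for RPS3, chr6:73521018-73521042 on the minus strand for EEF1A1, chr10:78033853-78033877 on the plus strand for RPS24, chr12:6535254-6535278 on the plus strand for GAPDH and chr5:171387839-171387863 on the plus strand for NPM1. RACK1 (a scaffold protein of the small ribosomal subunit), RPS3 and RPS24 (ribosomal proteins), EEF1A1 (which delivers tRNAs to the ribosome) and NPM1 (a nucleolar chaperone of ribosome assembly) held such a word. GAPDH, a glycolytic enzyme, held none in this window. Only 1 RefSeq start was used per gene, and a window need not lie at the main start of its gene. Of the 100 nuclear protein-coding genes with the highest EV mean on the chromosomes of the promoter table, 90 had a start site in it, and 51 of those (56.7%) held an oligopyrimidine word on the coding strand. The share was 77.4% for 62 matched genes of cytosolic ribosomal proteins, 31.6% for the 38 matched genes of the top 100 that are not ribosomal proteins, and 14.9% for all 27305 start sites in the table. On the opposite strand, the words stood in 2.22% of the top 100 and in 12.3% of all start sites. The TATA word TATAAA, searched on both strands in the 50 bases before the start, was in 7.78% of the top 100, in 1.93% of the nuclear protein-coding genes at 1 FPKM or more, in 4.37% of nuclear protein-coding genes and in 3.76% of all. GGGCGG, a core of the Sp1 site, was in 64.4% of the windows of 300 bases of the top 100, in 72.1% of those of nuclear protein-coding genes at 1 FPKM or more, in 59.8% of those of nuclear protein-coding genes and in 44.6% of all. CCAAT was in 41.1% of the top 100, 36.9% of the genes at 1 FPKM or more and 35.7% of all. A match of these letters is a description of the sequence and not a site shown to act.

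Of the 54562 genes in the table, 13815 (25.3%) were expressed in EV, 10616 were above 0 but under 1 FPKM, and 30131 (55.2%) were listed at 0 in all 3 EV libraries. Among protein-coding genes, 12091 of 19022 (63.6%) were expressed. The median of the expressed genes was 11.6 FPKM, with quartiles of 4.52 and 26.5. Only 751 genes reached 100 FPKM and 74 reached 1000. The summed FPKM was concentrated in these few. The top 10 genes held 8.81% ± 0.301 of it (SD, n = 3), the top 100 held 30.2% ± 1.10, and 462 genes held 50% of it.

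Mitochondrially encoded transcripts led the list. MT-CO2, a subunit of cytochrome c oxidase, was at 7527, 7488 and 7792 FPKM in EV replicates 1, 2 and 3. MT-CO1, the catalytic subunit of the same enzyme, was at 8428, 7350 and 6550 FPKM, with EV replicate 1 the highest and EV replicate 3 the lowest. The means of MT-CO2 (7602 ± 165) and MT-CO1 (7443 ± 942) differed by less than the spread of MT-CO1. MT-CO3 (5515 ± 203 FPKM), MT-ATP8 (6046 ± 565) and MT-ATP6 (5080 ± 319), the last 2 being subunits of ATP synthase, followed. Neighbouring mitochondrial genes can share fragments: MT-ATP8 is 207 nt long and overlaps MT-ATP6 by 46 nt, and MT-ND4L (3220 ± 336 FPKM) overlaps MT-ND4 (3814 ± 516) by 7 nt, so that the split within each pair is uncertain. The other subunits of NADH dehydrogenase ranged from MT-ND5 (1710 ± 324 FPKM) down to MT-ND6 (360 ± 28.0), the only protein gene on the light strand. The large ribosomal RNA MT-RNR2 was at 3400 ± 689 FPKM and the small one, MT-RNR1, at 1066 ± 115, in libraries selected for poly(A). In all, 15 of the 37 mitochondrial genes were above 0, over a 21.1-fold range, and the 22 transfer RNA genes were listed at 0.

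Messages of the translation machinery came next. Of the top 20 genes, 8 were mitochondrial, 9 encoded cytosolic ribosomal proteins, and the others were RACK1, EEF1A1 and GAPDH. RPS3, a protein of the small subunit, was at 2298, 2283 and 1973 FPKM. EEF1A1 was at 2346, 2216 and 1908 FPKM and RACK1 at 2367, 2290 and 2030. All 3 genes were lowest in EV replicate 3. The other ribosomal protein genes of the top 20 ranged from RPL4 (1911 ± 110) to RPS24 (2146 ± 128) FPKM and included RPS2, RPL19, RPL37A, RPL36 and RPL37. Of 78 genes of cytosolic ribosomal proteins, 74 were at 100 FPKM or more and 39 at 1000 or more, with a median of 975 FPKM, against a median of 4.85 FPKM over all protein-coding genes. Only 2 were under 1 FPKM, among them RPS18, listed at 0 in each EV library. Every cell needs this protein, and a value near 0 in this table is therefore not by itself a sign that a gene is silent.

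**Figure D1:**
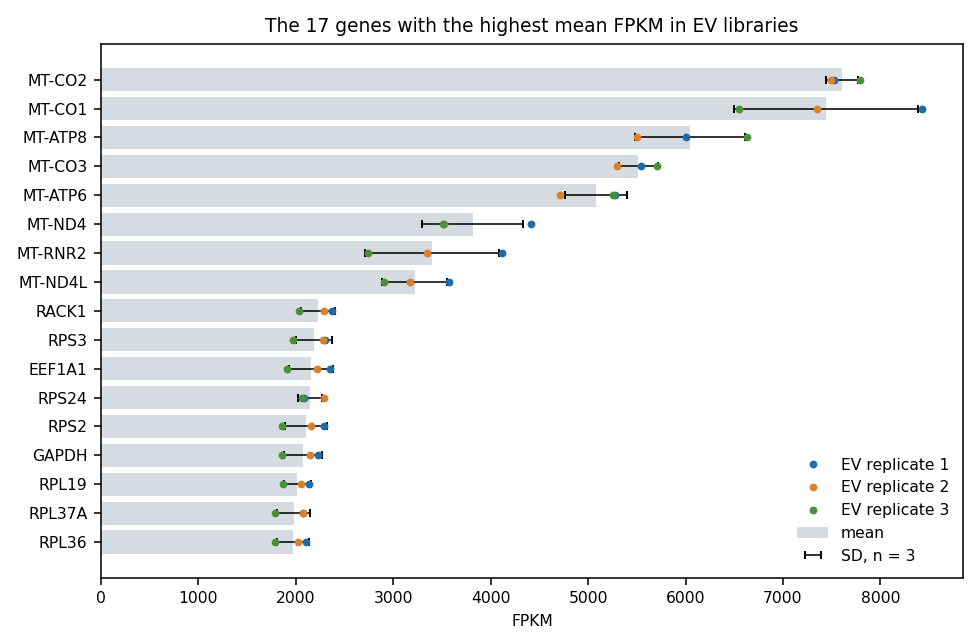
The 17 genes with the highest mean FPKM over the 3 EV libraries (FPKM on the x axis; grey bars, mean; error bars, SD, n = 3; coloured points, single libraries). The 8 mitochondrial genes lie at 2738 FPKM or more in each library, and the nuclear genes among the 17 lie between 1786 FPKM (RPL37A in EV replicate 3) and 2367 FPKM (RACK1 in EV replicate 1).

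Outside ribosomal proteins and mitochondrial genes, RACK1 and EEF1A1 were followed by protein-coding genes of several kinds. GAPDH was at 2230, 2147 and 1856 FPKM and LDHA, which reduces pyruvate to lactate, at 1629, 1403 and 1109. Both were highest in EV replicate 1 and lowest in EV replicate 3. ENO1 (1177 ± 78.7 FPKM), PGK1 (891 ± 223), LDHB (707 ± 39.4) and TPI1 (691 ± 67.2), also glycolytic enzymes, were lower, and LDHB had its highest value in EV replicate 3. The cytoskeletal genes were led by ACTG1 (1341 ± 170 FPKM), TMSB4X (1287 ± 209), which encodes an actin-binding thymosin, and ACTB (1011 ± 90.8). NPM1 (1414 ± 194), PTMA (1254 ± 59.2), TPT1 (1247 ± 113) and EEF2 (1201 ± 199), the elongation factor of translocation, are all tied to growth or translation. SAT1 (1014 ± 198), which acetylates polyamines, GNAS (1012 ± 128), the stimulatory G protein subunit, UBB (990 ± 23.8), a ubiquitin gene, PPIA (965 ± 15.9), cyclophilin A, CKB (877 ± 93.3), brain-type creatine kinase, HNRNPA2B1 (866 ± 129), an RNA-binding protein, and EEF1G (863 ± 92.1) completed the set. Among these, PPIA (976, 973 and 947 FPKM) and UBB varied least and PGK1 (1075, 955 and 643 FPKM) varied most between the libraries.

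Protein-coding genes held 91.4% ± 0.296 of the summed FPKM. Processed pseudogenes held 5.28% ± 0.136. Pseudogenes of ribosomal protein genes, counted over all pseudogene types, held 3.32% ± 0.140 of the summed FPKM. RPL41P1 (1840 ± 160 FPKM), RPL39P3 (1493 ± 130) and RPL23AP42 (1387 ± 11.8) stood among the most abundant entries of the table, beside their parent genes RPL41 (1043 ± 88.3 FPKM), RPL39 (1798 ± 163) and RPL23A (736 ± 44.5). RPS28P7 (1285 ± 63.1), RPL36AP37 (1232 ± 86.0), EEF1A1P5 (1103 ± 104) and RPL18AP3 (1020 ± 60.7) FPKM, also copies of translation genes, were in the same range. Such copies are nearly identical to their parents, and how the fragments were split between copy and parent is uncertain. Long noncoding RNA genes held 0.853% ± 0.0224, with 608 of 9360 expressed. They were led by the snoRNA host genes SNHG29 (307 ± 11.3 FPKM), SNHG5 (219 ± 8.10) and GAS5 (168 ± 20.6). In these libraries selected for poly(A), 1525 of 1530 miRNA precursor genes, 1874 of 1892 snRNA genes and 1355 of 1410 snoRNA genes were listed at 0, and the highest snoRNA gene, SNORA73, was at 8.46 FPKM. The 6984 identifiers that did not match the annotation held 1.21% ± 0.0573.

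By function, cytosolic ribosomal proteins held 14.95% ± 0.744 of the summed FPKM and mitochondrially encoded genes 9.69% ± 0.317. Nuclear genes of the respiratory chain held 2.39% ± 0.0462, led by COX7C (541 ± 21.2 FPKM). Translation factors held 2.13% ± 0.0517 and the 17 glycolytic genes 1.61% ± 0.164. The class of actin, tubulin and thymosin genes held 1.42% ± 0.109. This class also counts other cytoskeletal genes, namely those of profilins, cofilins and α-actinins (such as PFN1, CFL1 and ACTN4) and VIM. The hnRNP and SR splicing factors held 1.30% ± 0.121 and heat shock proteins with the CCT chaperonin 1.13% ± 0.150, led by HSP90AB1 (512 ± 45.7 FPKM). Proteasome subunits held 0.709% ± 0.0449, in a class that also counts the assembly factors PSMG1 to PSMG4, and PSMF1, PSME3IP1 and PSMC3IP. Histone genes held 0.236% ± 0.00776, led by H2AZ1 (627 ± 49.3 FPKM), whose message is polyadenylated, while most replication-dependent histone messages carry no poly(A) tail. The 497 ZNF zinc finger genes together held 0.764% ± 0.0560, and the highest of them was ZNF711 (577, 519 and 645 FPKM). The median over the ZNF genes was 4.74 FPKM, near the 4.85 FPKM of all protein-coding genes.

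**Figure D2:**
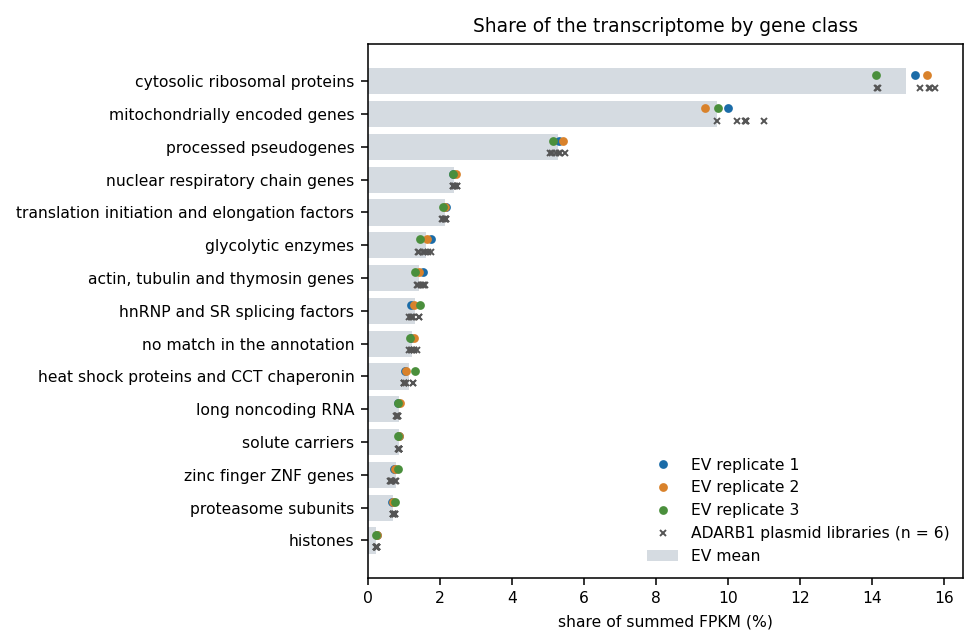
Share of the summed FPKM (x axis, %) held by each gene class (grey bars, EV mean; coloured points, single EV libraries; crosses, the 6 ADARB1 plasmid libraries). The EV points of cytosolic ribosomal proteins lie between 14.1% and 15.5%, and those of mitochondrially encoded genes between 9.36% and 10.0%.

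The label of a kidney cell line was compared with marker genes of kidney and of other tissues. Genes that mark segments of the mature nephron were mostly low: 4 of 20 were expressed (20%), with a list median of 0.0263 FPKM, beside 63.6% and 4.85 FPKM over all protein-coding genes. PODXL, a sialomucin of podocytes that other cells also make, was at 11.3, 10.7 and 10.5 FPKM, and LRP2, the megalin receptor of the proximal tubule, at 7.003, 6.85 and 6.58. AQP3 (1.86 ± 0.306 FPKM), a water channel of the collecting duct, and SCNN1A (1.38 ± 0.386), a subunit of the epithelial sodium channel, were just over the threshold. UMOD (uromodulin of the thick ascending limb), SLC5A2, SLC22A6 and SLC22A8 (transporters of the proximal tubule) and AQP2 (the vasopressin-regulated water channel) were listed at 0 in each EV library.

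Of 18 matched transcription factors of kidney development 13 (72.2%) were expressed, near the 63.6% of all protein-coding genes, and their median of 3.24 FPKM was below the 4.85 FPKM of all. CITED1, a marker of nephron progenitors, was at 39.7, 35.7 and 30.3 FPKM. HOXD11 (19.9 ± 1.65 FPKM), which acts in the metanephric mesenchyme, IRX3 (14.5 ± 2.40), GATA3 (12.3 ± 0.555), a factor of the nephric duct, and SALL1 (10.4 ± 1.46) followed. WT1 (3.53 ± 0.573), SIX2 (2.94) and PAX2 (2.28) were low, PAX8 was at 0.0656 FPKM and TFAP2B was listed at 0. LHX1 found no match by name.

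Of 19 matched neuronal markers 12 (63.2%) were expressed, with a median of 2.20 FPKM, and of 15 neural progenitor markers 11 (73.3%), with a median of 7.31, shares near that of all protein-coding genes. UCHL1, a deubiquitinase abundant in neurons, was at 309, 318 and 328 FPKM and made up 66.1% of the summed level of its list. NEFM, the medium neurofilament subunit, was at 48.6, 55.3 and 70.8 FPKM, highest in EV replicate 3, and ENO2, neuronal enolase, at 42.3, 34.5 and 22.4, highest in EV replicate 1. DPYSL3 (19.6 ± 1.37 FPKM), INA (11.3 ± 1.09) and TUBB3 (10.7 ± 0.549) were lower. STMN2 (0.0919 FPKM) and DCX (0.00566), which mark young neurons, and RBFOX3 (0.561), the NeuN antigen of mature neurons, were under 1. Among progenitor factors, SOX4 (39.8 ± 4.16 FPKM), MSI2 (22.6 ± 1.32), ZIC2 (19.5 ± 2.14), PAX6 (19.0 ± 1.37), MSI1 (15.4 ± 2.30) and SOX11 (14.3 ± 0.993) were the highest, while SOX1 (0.0131) was near 0.

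Adrenal genes were compared as well, since the adrenal gland lies next to the embryonic kidney. Of 18 members 4 were expressed, with a median of 0.0888 FPKM. The 2 highest, FDX1 (13.4 ± 0.486 FPKM) and FDXR (10.3 ± 1.93), are mitochondrial electron carriers that many tissues use. NR0B1, which is more specific to adrenal and gonad, was at 4.76, 2.98 and 1.56 FPKM, and PNMT, which makes adrenaline, at 2.06, 1.58 and 1.64. CYP11B1, CYP11B2, MC2R, TH and DBH, which define adrenocortical and chromaffin cells, were listed at 0, as was CYP21A2.

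Of 20 epithelial markers 8 (40%) were expressed, with a median of 0.534 FPKM, and of 21 mesenchymal markers 15 (71.4%), with a median of 2.85, beside 63.6% and 4.85 over all protein-coding genes. KRT8 (176 ± 13.1 FPKM) and KRT18 (79.9 ± 6.26), keratins of simple epithelia, were the highest epithelial markers, followed by TJP1 (15.9 ± 1.80), EPCAM (15.8 ± 2.28), ESRP2 (15.5 ± 1.03) and OCLN (12.1 ± 1.12). CDH1, E-cadherin, was at 11.3, 9.75 and 7.34 FPKM and CDH2, N-cadherin, at 43.2, 41.9 and 40.5, so that CDH2 was above CDH1 in each library. KRT5 and KRT7, keratins of basal and ductal epithelia, and GRHL2 were listed at 0. The mesenchymal markers were led by VIM (143 ± 9.34 FPKM), FN1 (47.9 ± 11.9) and COL6A1 (47.5 ± 8.95), with ACTA2 (14.3 ± 4.27) and COL1A1 (10.7 ± 1.49) below them. COL1A2, the partner chain of COL1A1, and THY1 were listed at 0.

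Markers of other lineages were largely low. Of 15 pluripotency genes 6 were expressed, among them MYC (28.1 ± 2.00 FPKM), LIN28B (15.2, 15.1 and 25.5 FPKM), DNMT3B (9.81 ± 0.754), SOX2 (7.31 ± 0.511), KLF4 (5.04 ± 1.13) and SALL4 (3.21 ± 0.546), and NANOG, LIN28A, DPPA4, ZFP42 and POU5F1 were listed at 0. Of 21 haematopoietic markers, KIT (4.31 ± 0.494 FPKM), RUNX1 (2.55 ± 0.379) and CD68 (2.16 ± 0.253) were expressed, PTPRC, the leukocyte antigen CD45, was at 0.0148, and MS4A1, GATA1, HBB and HBG1 were listed at 0. Of 14 matched endothelial markers 3 were expressed, FLI1 (12.1 ± 0.666), FLT1 (6.71 ± 0.0732) and SOX18 (1.46 ± 0.270), while CDH5, the endothelial cadherin, was at 0.0187 and SOX17 and CLDN5 were listed at 0. Of 18 matched hepatocyte markers 2 were expressed, FOXA2 (2.14 ± 0.630) and CYP2E1 (1.29 ± 0.309), and AFP, TTR and FGA were listed at 0. Of 19 muscle markers 2 were expressed. These were NKX2-5, a cardiac transcription factor, at 14.4, 14.6 and 13.8 FPKM, and PAX3, a factor of muscle and neural crest precursors, at 6.12, 5.68 and 6.31. MYF5, MYOG and MYH1 were listed at 0. HOX genes, which set position along the body axis, were expressed in all 4 clusters, with 34 of 38 at 1 FPKM or more, led by HOXB9 (40.5 ± 3.65 FPKM) and HOXD10 (32.6 ± 2.72).

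**Figure D3:**
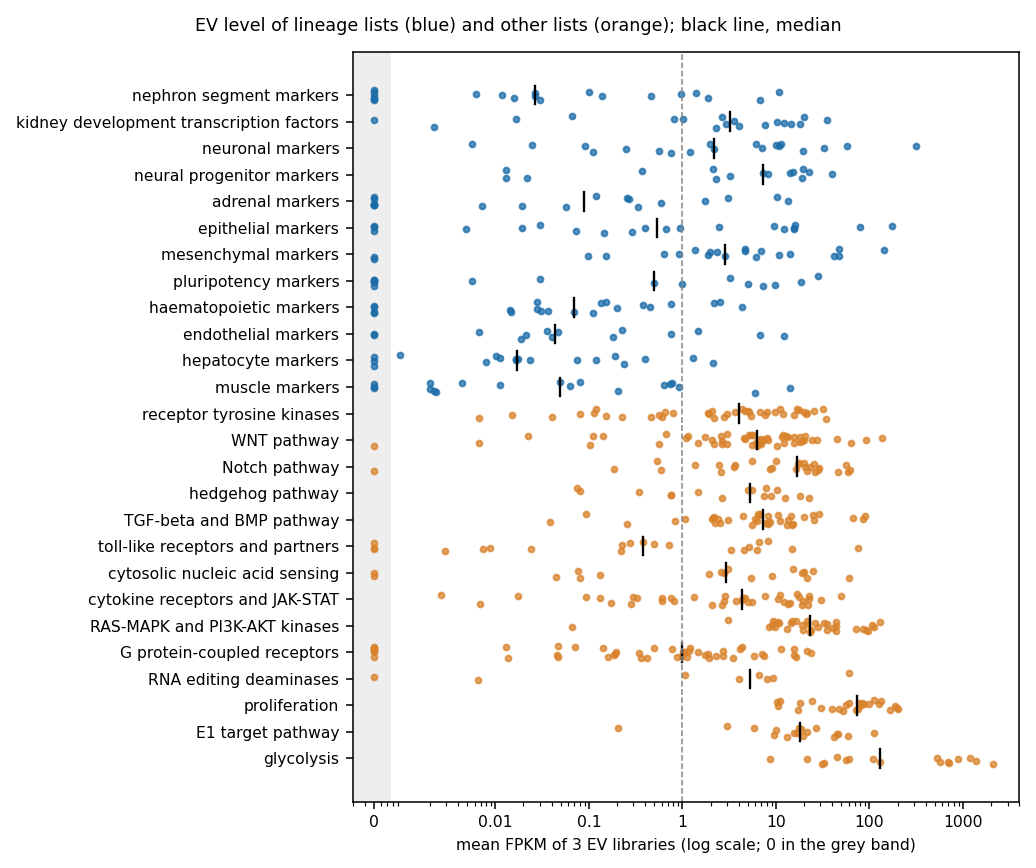
Mean FPKM over the 3 EV libraries (x axis, log scale, with 0 in the grey band) of each member of the lineage lists (blue) and of the signalling and process lists (orange); black lines mark list medians and the dashed line 1 FPKM. The nephron segment, adrenal, haematopoietic, endothelial, hepatocyte and muscle lists have medians under 0.1 FPKM, and the proliferation and glycolysis lists have all members above 1.

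Signalling pathways differed in which of their parts were present. In the WNT pathway, in which secreted ligands bind frizzled receptors and stabilise β-catenin, 45 of 53 genes were expressed. Of the 15 ligands 8 passed 1 FPKM, the highest being WNT5B (7.28 ± 0.932), whereas all 10 frizzled receptors did, from FZD9 (2.18) to FZD6 (10.4 ± 1.81). CTNNB1, β-catenin itself, was at 130, 137 and 145 FPKM. CSNK1A1 (92.0 ± 7.77 FPKM) and GSK3A (63.1 ± 2.41), kinases that can phosphorylate it, were the next highest, and WLS (44.6 ± 2.99), which carries the ligands to the surface, followed. DVL3 (27.9 ± 1.02) and DVL1 (24.6 ± 1.405), the dishevelled adaptors below the receptors, completed the 6 highest, and WNT1 was listed at 0.

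In the Notch pathway, in which a ligand on one cell releases the intracellular domain of a receptor on its neighbour, 24 of 28 genes were expressed. Of the ligands, JAG2 was highest (17.1 ± 3.18 FPKM), and of the 4 receptors, NOTCH2 was (20.5 ± 1.81). The target HEY1 was at 64.5, 61.2 and 59.9 FPKM. The γ-secretase subunits PSENEN (58.7 ± 1.398 FPKM), APH1A (55.6 ± 3.17) and NCSTN (29.2 ± 1.32), the DNA-binding partner RBPJ (46.1 ± 2.06) and the target HES1 (27.9 ± 5.68) followed. NOTCH4 was listed at 0.

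Hedgehog signalling had receptors and transducers without ligands over the threshold. SMO, the signal transducer, was at 23.4, 22.7 and 21.1 FPKM and PTCH1, the receptor that restrains it, at 17.7, 19.8 and 17.2. The coreceptor CDON (12.4 ± 2.90), the ciliary kinesin KIF7 (10.4 ± 0.257), the factor GLI3 (8.80 ± 2.25) and the coreceptor BOC (7.87 ± 0.826) followed. None of SHH, DHH and IHH reached 1 FPKM, and the highest value of any of them in a single EV library was 0.478. In the TGF-β and BMP pathway 34 of 38 genes were expressed, including all 11 receptors and all 8 SMAD genes. Of the inhibitor of differentiation genes, which are BMP targets, ID2 (90.1 ± 7.51 FPKM), ID4 (86.4 ± 3.41) and ID3 (66.3 ± 2.75) led. ID1 was at 25.2 ± 3.12. SMAD5 (29.1 ± 2.22), a BMP-regulated SMAD, and BMP7 (25.7 ± 2.19), the highest ligand, were near ID1.

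Of 40 receptor tyrosine kinases 27 were expressed. The highest were FGFR1 (34.1 ± 3.82 FPKM), the pseudokinase PTK7 (32.0 ± 4.51), EPHB4 (21.3 ± 1.84), FGFR3 (20.9 ± 1.71) and IGF1R (19.9 ± 2.83), with IGF2R (25.5 ± 2.91), a mannose 6-phosphate receptor kept in the same list. All 4 FGF receptors and all 4 ERBB receptors passed 1 FPKM, and none of the 3 NTRK receptors did. Below them, 34 of 35 genes of the RAS-MAPK and PI3K-AKT cascades were expressed, with a median of 23.2 FPKM. EIF4EBP1, the translation repressor that mTOR phosphorylates, was at 160, 129 and 103 FPKM, highest in EV replicate 1. RHEB (113 ± 4.23), which activates mTOR, and AKT2 (106 ± 4.07) varied less. AKT1 (95.5 ± 12.3), MAP2K2 (92.2 ± 8.63) and MAPK3 (85.2 ± 11.9) followed, and PIK3CG, the leukocyte PI3K subunit, was at 0.0668. Of 49 matched G protein-coupled receptors 24 were expressed. CXCR4, a chemokine receptor, was at 31.9, 23.1 and 15.5 FPKM. ADGRL2 (21.6 ± 1.10), F2RL1 (16.5 ± 0.534), LGR4 (15.7 ± 2.21), F2R (15.6 ± 1.85) and ADGRL1 (11.3 ± 0.688) were the next highest, and the muscarinic receptor CHRM3 was at 4.36 ± 0.422. The muscarinic receptors CHRM1 and CHRM2, HTR1A, HTR2A, OPRM1 and AVPR2 were listed at 0.

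Toll-like receptors were low. None of the 10 toll-like receptors reached 1 FPKM. TLR5, the flagellin receptor, was the highest at 0.831, 0.841 and 0.513 FPKM, TLR3, which binds double-stranded RNA, was at 0.228, and TLR4, TLR7 and TLR8 were listed at 0. IRAK1 (75.2 ± 4.73 FPKM), TRAF3 (14.7 ± 1.51), IRAK4 (8.17 ± 0.171), TRAF6 (6.66 ± 0.916), UNC93B1 (6.22 ± 0.526) and TIRAP (5.12 ± 0.747), which act below or beside these receptors, were expressed. Of 18 matched genes of cytosolic nucleic acid sensing 12 were expressed. ADAR was at 63.2, 60.5 and 59.3 FPKM, followed by IRF3 (25.04 ± 2.46), the kinase EIF2AK2 (21.4 ± 1.92), MAVS (19.9 ± 0.550), IFI16 (19.0 ± 1.81) and STING1 (15.1 ± 2.28). CGAS, which makes the ligand of STING1, was at 0.0756 FPKM, the RNA helicases RIGI and IFIH1 were at 2.79 and 2.61, and AIM2 and ZBP1 were listed at 0. In the cytokine list 26 of 39 genes were expressed, led by TYK2 (50.2 ± 4.63), IFNGR2 (30.0 ± 3.05), STAT3 (22.5 ± 2.43), JAK1 (22.4 ± 2.18), STAT5B (22.3 ± 2.44) and IFNGR1 (19.7 ± 2.33).

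The RNA editing deaminases set the baseline for the ADARB1 plasmids of the series. ADAR was the highest of 8 deaminase genes, and ADARB1 was at 7.66, 7.999 and 8.61 FPKM, 8.09 ± 0.479 on average. ADARB2, a brain-enriched relative without known editing activity, was at 1.08 ± 0.232 FPKM. The tRNA deaminases ADAT2 (9.27 ± 1.395), ADAT1 (6.62 ± 0.551) and ADAT3 (4.05 ± 0.488) were also expressed, ADAD1 was at 0.00656 and ADAD2 was listed at 0.

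Proliferation genes were expressed without exception, 26 of 26, at a median of 73.5 FPKM. The replication licensing factor MCM7 was at 209, 208 and 190 FPKM and the mitotic cyclin CCNB1 at 180, 207 and 204. PCNA (186 ± 6.38), MCM3 (166 ± 12.2), CDK4 (132 ± 3.23) and TOP2A (128 ± 25.7) were next. The adenoviral E1 proteins are known to bind cell cycle regulators such as RB, and of 18 genes around their targets 17 were expressed. BAX, which promotes apoptosis, was at 111, 116 and 111 FPKM. MDM2 (59.7 ± 4.58), CDKN2A (45.8 ± 3.49), CDKN1A (41.4 ± 9.53) and GADD45A (26.9 ± 4.204) were below it, RB1 was at 16.9 and TP63 at 0.206.

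Gene families of specialised tissues marked the lower end of the table. None of 379 olfactory receptor genes, 92 genes of keratin-associated proteins, 18 of late cornified envelope proteins, 40 of β-defensins, 20 of type I and III interferons or 48 MAGE and GAGE genes reached a mean of 1 FPKM. The highest olfactory receptor, OR1F1, was at 0.566 ± 0.115 FPKM, and 345 (91.0%) were listed at 0. Of 55 keratins 4 were expressed, and of 38 interleukins 2, led by IL32 (5.28 ± 2.27 FPKM). Of 497 ZNF genes 412 (82.9%) were expressed and of 44 collagens 23 (52.3%), beside 63.6% of all protein-coding genes. Clustered protocadherins were mostly present at a trace, with 44 of 48 above 0 but under 1 FPKM.

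**Figure D4:**
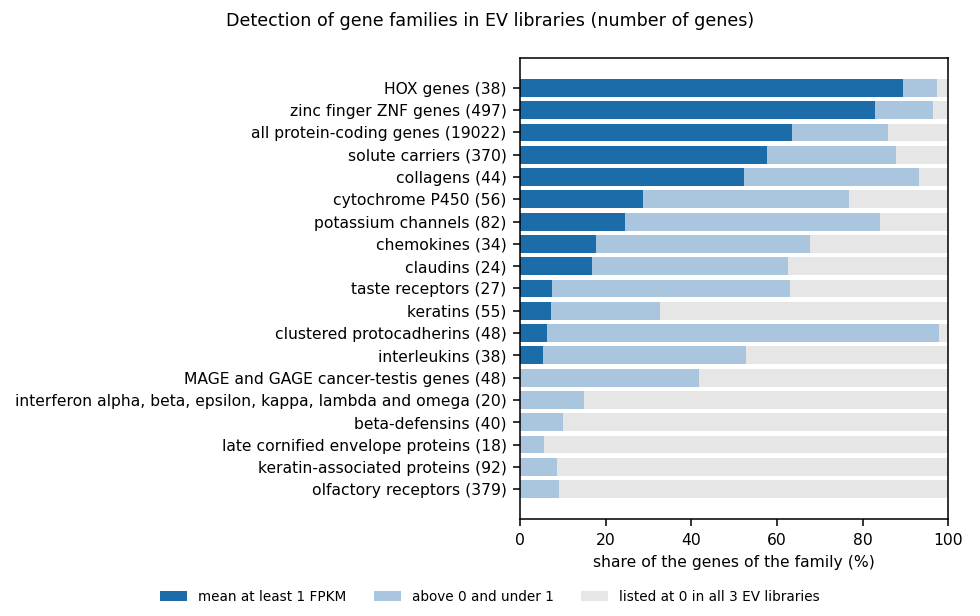
Share of the genes of each family (x axis, %) that had a mean of at least 1 FPKM in EV (dark), were above 0 and under 1 (light) or were listed at 0 in all 3 EV libraries (grey), with the number of genes in brackets. HOX and ZNF genes lie above the 63.6% of all protein-coding genes, and 6 families have no gene at 1 FPKM.

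Values of 0 were not spread evenly over the genome. Between GABBR1 and KIFC1 on chromosome 6 (29523406 to 33377673, GRCh37), a span that holds the major histocompatibility complex, 92 of 150 protein-coding genes (61.3%) were listed at 0 in EV, compared with 96 of 821 (11.7%) on the rest of that chromosome, and 84 of the 92 were at 0 in all 9 libraries. The genes listed at 0 there include RPS18, DDX39B (an RNA helicase of splicing), CSNK2B (a subunit of casein kinase 2) and CLIC1, named here after their values were seen. TUBB, the main β-tubulin gene of most cells, was at 0.0537, 0 and 0.139 FPKM in the same span. HLA-B (43.7, 42.5 and 30.6 FPKM) and HLA-C (72.0, 58.4 and 49.1) had values. Of the list members above, POU5F1, NOTCH4 and CYP21A2, all at 0, and the receptor tyrosine kinase DDR1 (2.07 FPKM) lie in this span. They are included in the counts of their lists, and those counts carry the same limit. Class members under 1 FPKM in this span, besides RPS18 and TUBB, were HSPA1A, HSPA1B, HSPA1L, PSMB8, PSMB9, SLC39A7 and SLC44A4. The shares and counts of their classes carry this limit too.

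The 3 EV libraries were close to each other. Spearman's rho over expressed genes was 0.993 between replicates 1 and 2, 0.986 between 2 and 3 and 0.982 between 1 and 3, a correlation across genes, which are not independent replicates. The coefficient of variation (CV, the SD as a share of the mean, n = 3) had a median of 10.2% over the expressed genes. It fell from 13.6% at 1 to 10 FPKM to 8.28% at 10 to 100 and 6.57% at 100 to 1000, and was 8.40% for the 74 genes above 1000. Of 7563 genes at 10 FPKM or more, 3 had a CV over 50%. They were ANKRD37 (16.5, 7.13 and 6.41 FPKM), HILPDA (34.7, 16.9 and 13.7) and the pseudogene PPIAP29 (22.7, 6.88 and 21.6). MIR210HG, the host of a microRNA, was next at 21.5, 10.98 and 8.70 FPKM, then HSPH1, a large heat shock protein, at 32.9, 33.2 and 67.7. Among protein-coding genes, COL6A2 (28.0, 18.8 and 11.04) and BHLHE40 (47.3, 27.4 and 22.2) followed. ANKRD37, HILPDA, MIR210HG, COL6A2 and BHLHE40 were each highest in EV replicate 1 and lowest in EV replicate 3. HSPH1 was highest in EV replicate 3. Of all expressed genes, 41.9% were highest in EV replicate 1 and 35.8% in EV replicate 3. At the other end, SSU72, a phosphatase of RNA polymerase II, was at 60.2, 60.3 and 60.4 FPKM (CV 0.133%), followed by ELOVL2 (CV 0.183%), ENTREP3 (0.192%), SRSF12 (0.197%) and RPS13 (0.198%).

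Some classes had most of their genes highest in the same EV library. Of the 17 glycolytic genes, 16 were highest in EV replicate 1, compared with 41.9% of all expressed genes, and their summed level was 9510, 8631 and 7412 FPKM in replicates 1, 2 and 3. Heat shock and chaperonin genes (40 of 64, 62.5%) and genes of the proteasome class (29 of 45, 64.4%) were most often highest in EV replicate 3. So were hnRNP and SR splicing factors (22 of 34, 64.7%), compared with 35.8% of all expressed genes. Only 3 of 76 expressed ribosomal protein genes were highest there. The deviation of a gene from its EV mean moved with the GC content of its transcript, with Spearman's rho across 13406 genes of 0.471 in EV replicate 1, 0.286 in replicate 2 and -0.533 in replicate 3. The median GC content was 53.1% for the glycolytic genes, 43.4% for heat shock and chaperonin genes and 41.5% for the splicing factors. It was 47.5% for the proteasome class and 47.9% for ribosomal protein genes, beside 47.7% for all expressed genes. The part of GC content in these shifts was not tested.

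**Figure D5:**
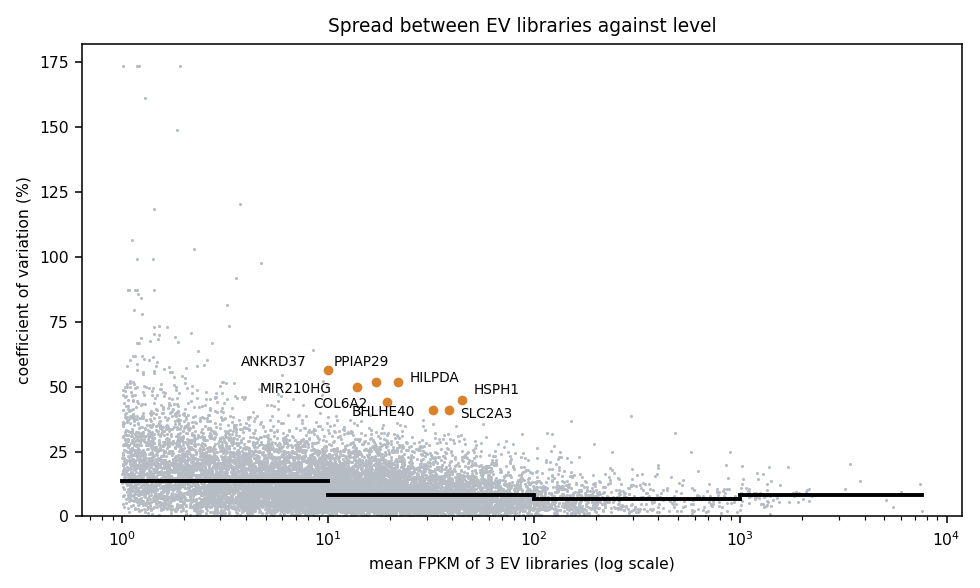
Coefficient of variation between the 3 EV libraries (y axis, %) against mean FPKM (x axis, log scale) for the 13815 expressed genes; black lines are medians within a level range and orange points the 8 genes with the largest CV at 10 FPKM or more. The median falls from 13.6% at 1 to 10 FPKM to 6.57% at 100 to 1000 FPKM.

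The EV libraries were then compared with the 6 ADARB1 plasmid libraries, to see which of these baseline levels differ where ADARB1 was expressed. ADARB1 was at 7.66 to 8.61 FPKM in EV and at 1695 to 4145 FPKM in the plasmid libraries, a log2 difference of 8.12 ± 0.141 (SE) on the log2(FPKM + 1) scale (limma, adjusted p = 4.28e-10). Of the 13801 genes that averaged 1 FPKM or more over the 9 libraries, 1390 (10.1%) had an adjusted p under 0.05 in limma with the replicate number as a block, 611 (4.43%) higher and 779 (5.64%) lower with the plasmids. Without the block the count was 2, without a filter on low values it was 1, and for Short alone against EV it was 5, whereas it was 1148 for Long alone against EV (275 higher and 873 lower), 1530 with a minimum mean of 5 FPKM and 1337 with a pseudocount of 0.1. ADARB1 was called each time. The difference between the Short and the Long contrast was not tested. Rescaled to TPM, which sum equally in all libraries, 5.47% of the calls were higher, in place of 43.96%. The log2 difference moved with GC content across genes (Spearman's rho 0.600, 13398 genes), with a median GC of 55.8% for genes called higher and 37.8% for genes called lower. It also moved with the length of the longest transcript (rho -0.209), with a median length of 2598 nt for genes called higher, 5731 nt for genes called lower and 3729.5 nt for all tested. The part of GC content and length in the calls was not tested.

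Next in size came 4 differences that kept their direction in each replicate number. Their genes passed the minimum level through the EV libraries only or through the plasmid libraries only. A difference was thus favoured by the filter and is given here as values without a test. ENSG00000241434, a pseudogene of 151 nt, was at 4.29, 2.83 and 2.31 FPKM in EV and at 0 to 0.478 in the plasmid libraries. The snoRNA gene SNORA21 was at 0, 0.294 and 0 FPKM in EV and at 1.35 to 3.501 with the plasmids. GH1, growth hormone, was at 0.392, 0.667 and 1.10 FPKM in EV and at 1.38 to 5.75 with the plasmids. ENSG00000199452, listed at 0 in EV, was at 0 to 3.18 FPKM with the plasmids. Below these came CENPE, a mitotic kinesin, at 13.2, 9.68 and 16.8 FPKM in EV and at 1.60, 1.82 and 9.40 in Long replicates 1, 2 and 3 and 2.81, 7.01 and 13.0 in Short replicates 1, 2 and 3 (log2 difference -1.30 ± 0.253, limma adjusted p = 0.0215), and CENPF, a kinetochore protein, at 38.7, 29.0 and 57.5 FPKM in EV and at 7.87, 7.91 and 33.8 in Long and 11.9, 21.4 and 47.2 in Short (-1.16 ± 0.211, limma adjusted p = 0.0199), both named after their values were seen. Their groups overlapped, and within each replicate number the plasmid mean was below EV. For both genes replicate 3 was the highest library in each of the 3 groups. Long replicate 3 stood apart from the other Long libraries, with 307 and 324 of the genes expressed in EV over 2-fold from replicates 1 and 2 on the log2(FPKM + 1) scale, of which 280 and 308 were higher in replicate 3, beside 30 to 62 genes over 2-fold between EV libraries. Short replicate 3 had 200 and 96 such genes, 167 and 76 of them higher in it. Without replicate number 3 of every group 924 genes were called, beside 2 without number 1 and 13 without number 2.

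Of the 387 tested members of the 26 lists, 34 (8.79%) were called, 18 higher and 16 lower, and their median log2 difference was 0.05, beside 10.1% and 0.04 over all genes tested. No member was called among the tested genes of the TGF-β and BMP (33 tested), G protein-coupled receptor (25), kidney development (13), neuronal (12), neural progenitor (11), hedgehog (11), toll-like receptor (8), nephron (4), adrenal (4), haematopoietic (3), endothelial (3) and hepatocyte (2) lists. At the 10.1% of all genes, a list with 2 to 8 tested genes gives fewer than 1 call. The higher calls depended on the scaling. Rescaled to TPM, ADARB1 and HRAS were the only 2 of the 18 higher members still called, and with median-ratio scaling 6 were (ADARB1, HRAS, MCM2, PLK1, IGF2R and NKX2-5), whereas all 16 lower members were called under both. The lower calls were lost with some other settings and kept with others. For Long alone against EV, all 16 lower and 8 of the 18 higher members were still called. Without replicate number 3 of every group, 15 lower and 2 higher members were. Without the replicate block, without replicate number 1 or number 2 of every group, without a filter on low values and for Short alone against EV, ADARB1 was the only 1 of the 34 members called, and without the intensity trend of limma 5 were, 4 of them lower. The differences below are those of FPKM with the block. Proliferation genes had 8 of 26 called. The replication genes MCM2 (0.21 ± 0.0450), MCM5 (0.19 ± 0.0437) and MCM7 (0.15 ± 0.0367), the kinase gene PLK1 (0.20 ± 0.0474) and CDK4 (0.14 ± 0.0361) were higher, and TOP2A (-0.70 ± 0.117), CCNE2 (-0.44 ± 0.0928) and CDK1 (-0.36 ± 0.0507) lower. Among genes of the RAS-MAPK and PI3K-AKT cascades, HRAS (0.30 ± 0.0478), MTOR (0.21 ± 0.0513), RPTOR (0.23 ± 0.0594) and EIF4EBP1 (0.16 ± 0.0390) were higher and RICTOR (-0.80 ± 0.147), PIK3CA (-0.55 ± 0.145) and RPS6KB1 (-0.26 ± 0.0730) lower. Of the nucleic acid sensors, IFI16 was at 20.8, 17.1 and 19.1 FPKM in EV, above each plasmid library (-0.47 ± 0.0884), and TBK1 was lower too (-0.35 ± 0.0912), with overlapping groups.

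The other 16 members called, apart from ADARB1, were spread over the lists. Higher were the keratins KRT8 (0.18 ± 0.0464) and KRT18 (0.18 ± 0.0443), NKX2-5 (0.23 ± 0.0587), IGF2R (0.22 ± 0.0483), WLS (0.18 ± 0.0446), LEF1 (0.21 ± 0.0573), CDKN2A (0.19 ± 0.0471) and GPI (0.17 ± 0.0436). Lower were ZEB1 (-0.60 ± 0.112), LIN28B (-0.38 ± 0.107), ERBB4 (-0.35 ± 0.0961), APC (-0.9995 ± 0.170), ADAM10 (-0.27 ± 0.0711), IL6ST (-0.69 ± 0.170), LIFR (-0.53 ± 0.129) and RB1 (-0.32 ± 0.0786). Apart from ADARB1, APC had the largest difference of any list member.

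Among the most abundant genes, 14 of the 20 and 40 of the 100 highest of EV were called higher with the plasmids in the fit with the replicate block, beside 4.43% of all genes tested. The classes follow in order of their share of the summed FPKM. Of ribosomal protein genes 20 of 76 were called higher, and of mitochondrially encoded genes 11 of 15. So were 9 of 82 nuclear respiratory chain genes, 13 of 66 translation factors and 1 of 17 glycolytic enzymes. The actin, tubulin and thymosin class, with its other cytoskeletal genes, had 9 of 24 called higher, and hnRNP and SR splicing factors 1 of 34. Rescaled to TPM, these counts were 2 and 7 for the highest genes and 1, 5, 0, 1, 0, 2 and 1 for the classes, beside 0.493% of all genes, with 2 of the 17 glycolytic enzymes and 4 of the 34 hnRNP and SR splicing factors called lower, beside 8.51%. Heat shock proteins and the CCT chaperonin, the next class by share, had 4 of 64 called higher and 10 (15.6%) lower, and 0 and 10 with TPM. Of the 409 ZNF genes tested, 10 were called higher and 38 (9.29%) lower, beside 4.43% and 5.64% of all genes. With TPM none was called higher and 57 (13.9%) were called lower, beside 0.493% and 8.51% of all genes. None of the calls in these sets held without the replicate block, without replicate 1, without a filter on low values or for Short alone against EV, where no gene of any of them was called. Without replicate 2, 1 ZNF gene was called and no other gene of these sets. Without the intensity trend, 0 of the 20 and 1 of the 100 highest genes and 16 of the ZNF genes were called. For Long alone against EV, 9 of the 20 and 22 of the 100 highest genes were called higher. So were 10 of 76 ribosomal protein and 9 of 15 mitochondrially encoded genes, beside 1.99% of all genes. Of the ZNF genes 43 were called lower there, beside 6.33% of all genes. Without replicate 3 these counts were 11, 27, 10, 12 and 30, beside 1.02% of all genes higher and 5.67% lower.

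The shares of summed FPKM held by 23 gene classes were compared in an exact two-sided permutation test over the 9 libraries. The smallest possible p is 0.0119, and 1 class alone could reach no adjusted p below 0.274, so that the test had little room to make a call. The lowest adjusted p was 0.821. The mitochondrially encoded share was 9.69% ± 0.317 in EV and 10.4% ± 0.425 with the plasmids (exact permutation p = 0.0714). ADARB1 itself is part of the total and held 0.299% (Long replicate 1) to 0.745% (Short replicate 2) of it with the plasmids. With ADARB1 left out of the total, the p of the mitochondrially encoded share was 0.0476 (exact permutation, adjusted p = 0.908). Labels were also exchanged only within replicate numbers. Long noncoding RNA and ZNF genes, lower with the plasmids, then had the smallest possible p of 0.037 (exact permutation, adjusted p = 0.284). So did the actin, tubulin and thymosin class with its other cytoskeletal genes, which was higher with the plasmids. With ADARB1 left out of the total, ribosomal protein and mitochondrially encoded genes, both higher with the plasmids, reached this p as well (exact permutation, adjusted p = 0.170).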

How the data were processed

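The 3 EV libraries were described, and compared with the 6 ADARB1 plasmid libraries, in groups taken from their labels. Alignment was done by the authors with TopHat (version 1.4.1), first against Ensembl transcripts and then hg19. They deposited FPKM for each gene in each library, and replicates were not pooled. Cufflinks is named in the submitters' processing notes. The Ensembl release behind these FPKM and the FPKM settings are not given in the sources used here. The paper names a release for its other analyses. FPKM hold no counts, so no interval or detection limit was computed.

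Names, transcript lengths and GC content came from GENCODE for GRCh37, which matched 47578 of 54562 identifiers (87.2%) and 97.0% of expressed genes. Start sites came from the RefSeq promoter table, which matched 81.2% of the protein-coding genes on its chromosomes. limma (version 3.58.1, R 4.3.3) was run on log2(FPKM + 1) with an intensity trend and a minimum mean of 1 FPKM, with Benjamini-Hochberg adjustment at 0.05. Differences on this scale understate the change of low genes. The replicate number was a block, since transfections were repeated in 3 passages. Deviations from the group means correlated at 0.327 to 0.813 over 9 pairs of the same number, against -0.634 to 0.366 over 18 other pairs. Such deviations cancel within a group, so a positive correlation within a number lowers those of other pairs. EV replicate 1 correlated most with Long and Short replicate 1 (0.453 and 0.450). With Long and Short replicate 2 it correlated at 0.362 and 0.366, and EV replicate 2 at 0.354 and 0.327. These correlations do not settle the pairing of EV replicates 1 and 2. On simulated data for this comparison (13801 genes), the fit recovered 42 of 50 genes changed by 1.5-fold, 73 of 75 changed by 2-fold and 75 of 75 changed by 4-fold, with 5 false calls. The noise there was drawn independently for each gene, whereas deviations in these libraries moved with GC content across genes. The simulation therefore gives no rate of false calls for these data. All libraries are from 1 cell line.

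Genes were named by rank: the 20 highest, the 20 highest outside ribosomal and mitochondrial genes, up to 6 members of each list and members listed at 0, the genes of largest and smallest CV at 10 FPKM or more, list members called by limma and the 5 largest called differences. Other genes named, such as parents of pseudogenes, leading members of a class or family, and list members under 1 FPKM, were chosen after their values were seen. The members and gene lists were chosen with earlier results of these data known. Some genes of these sets are not reported here.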

Additional observations from a re-analysis of the deposited data

How the results depend on the processing

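The number of expressed genes (13815) was 13330 when each EV library had to reach 1 FPKM, 18562 with a minimum of 0.1 FPKM and 10113 with a minimum of 5 FPKM, and it was 13780 to 13885 without 1 of the replicates. The share of protein-coding genes was 92.7% and that of mitochondrially encoded genes 8.20% without genes under 300 nt, and the share of cytosolic ribosomal proteins was 16.6% without mitochondrially encoded genes, by construction, since fewer genes enter the classes or the total.

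The comparison with the plasmid libraries depended on its settings. In place of 1390 called genes, limma called 207 without the intensity trend, 1 without a filter on low values (more genes tested), 5 for Short alone, 1148 for Long alone, and 2 to 924 without 1 of the replicate numbers (2 without number 1 and 13 without number 2). Without the replicate block it called 2 genes. For the class shares, the count past the adjusted threshold was 0 with and without the replicate block, in a design in which 1 class alone could not pass, so that it says nothing about stability. Of the 34 called list members, 18 were still called after rescaling to TPM (2 of 18 higher and all 16 lower), 22 with median-ratio scaling (6 and 16) and 1 without the replicate block, and none changed direction in a setting that tested it (32 were tested with a minimum mean of 5 FPKM). The cause of these changes was not tested. ADARB1 was called in all 13 settings, with a log2 difference of 7.82 to 8.34. Since FPKM give no depth, nothing further can be said of genes at 0.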
